A study of Mus musculus with 6 samples.

Results

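Nuclear-encoded genes of the mitochondrial respiratory chain were examined in the open chromatin of untreated mouse embryonic stem cells. The members are the RefSeq protein-coding genes on GRCm38.p6 whose symbols begin with Nduf, Uqcr, Cox4 to Cox8 or Atp5, together with Sdha, Sdhb, Sdhc and Sdhd. They are 96 of 21887 protein-coding genes on chromosomes 1 to 19, X and Y. The rule uses symbols and no peak value, but it was set with earlier results of these data known. For each, the ATAC-seq peaks that overlapped 1 kb either side of an annotated gene end by at least 1 bp were taken, here called gene-end peaks. ATAC-seq marks open DNA by the insertion of sequencing adapters with the Tn5 transposase.

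The respiratory chain passes electrons from NADH and succinate to oxygen in the inner mitochondrial membrane, and ATP synthase uses the proton gradient so formed. Complex I is NADH dehydrogenase, complex II succinate dehydrogenase, complex III cytochrome bc1, complex IV cytochrome c oxidase and complex V ATP synthase. Mitochondrial DNA encodes some core subunits of complexes I, III, IV and V, and the nucleus encodes the rest. Several complex IV subunits have a ubiquitous form and a second form known from muscle, testis, lung or cells short of oxygen. NRF1, GABPA and YY1 are known regulators of many of these nuclear genes.

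The series concerns NSD1, which methylates histone H3 at lysine 36, and its labels describe 6 samples in 6 groups of 1. All are E14 mouse embryonic stem cells or embryoid bodies grown from them, and all carry a knock-in that fuses NSD1 to a dTAG degron, through which the small molecule dTAG-13 directs the protein to degradation. The stem cells stood in 2i/LIF medium, with titles giving 0, 1, 6 and 24 h of 500 nM dTAG-13. The embryoid bodies were of day 6, without and with dTAG-13. The peak list of the untreated 0 h stem cells was used, and the other 5 samples, not analysed here, leave the loss of NSD1 unmeasured. The labels do not say whether the knock-in line is 1 clone.

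With 1 library there are no replicates and no test. The depth at a peak is its summit pileup, how many reads or fragments lie over its highest base, recovered from the authors' fold and p-value. Its 95% interval is exact Poisson and covers counting error only. In a bulk library, a site open in fewer cells and a site less open in each cell cannot be told apart. A peak also says nothing of how much RNA a gene makes. The list held 77629 peaks with a median pileup of 23. Of 8 stem cell markers, 7 had a gene-end peak, and the other, Esrrb, had a peak within the gene. None of 4 testis markers had one, against 1 of 6 of striated muscle, 2 of 3 of lung and 2 of 3 of fibroblasts. Over all protein-coding genes the share with a gene-end peak was 66.5%, so the lung and fibroblast counts lie near it.

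Promoters of 6 members show what the results below turn on: the member with the most pileup (Atp5g1), a promoter with the letters of several known regulators (Cox6a1), one that faces the gene of such a regulator (Atp5j), and a ubiquitous subunit beside muscle isoforms without and with a peak (Cox8a, Cox8b and Cox7a1). Each sequence is the 250 bases before the start in RefSeq's promoter table of GRCm38.p6, written 5′ to 3′ on the gene's strand. Capitals mark matches on either strand to GCATGCGC (NRF1), CCGGAAG (ETS factors such as GABPA), AAGATGGCG (YY1), GGGCGG (SP and KLF factors), CCAAT (NF-Y), TATAAA (the TATA box), TCAAGGTCA (ERR), TGACGTCA (CRE) and CTAAAAATA (MEF2).
Atp5g1, chr11:96075632-96075881, minus strand: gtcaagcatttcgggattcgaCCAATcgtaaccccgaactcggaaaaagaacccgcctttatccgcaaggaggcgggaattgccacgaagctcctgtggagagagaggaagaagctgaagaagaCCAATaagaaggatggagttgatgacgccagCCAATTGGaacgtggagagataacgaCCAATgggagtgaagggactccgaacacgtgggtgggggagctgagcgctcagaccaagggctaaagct
Cox6a1, chr5:115348959-115349208, minus strand: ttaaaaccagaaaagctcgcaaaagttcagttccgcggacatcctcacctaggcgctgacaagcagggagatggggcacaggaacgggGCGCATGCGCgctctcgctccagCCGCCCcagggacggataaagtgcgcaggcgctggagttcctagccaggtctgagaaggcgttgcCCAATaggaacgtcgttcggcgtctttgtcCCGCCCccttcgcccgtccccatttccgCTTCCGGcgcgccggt
Atp5j, chr16:84835626-84835875, minus strand: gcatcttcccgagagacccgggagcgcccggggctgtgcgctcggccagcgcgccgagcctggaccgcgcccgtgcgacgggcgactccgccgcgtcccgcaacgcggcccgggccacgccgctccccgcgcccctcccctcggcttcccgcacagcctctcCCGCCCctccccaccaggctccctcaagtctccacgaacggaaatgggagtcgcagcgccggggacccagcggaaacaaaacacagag
Cox8a, chr19:7217617-7217866, minus strand: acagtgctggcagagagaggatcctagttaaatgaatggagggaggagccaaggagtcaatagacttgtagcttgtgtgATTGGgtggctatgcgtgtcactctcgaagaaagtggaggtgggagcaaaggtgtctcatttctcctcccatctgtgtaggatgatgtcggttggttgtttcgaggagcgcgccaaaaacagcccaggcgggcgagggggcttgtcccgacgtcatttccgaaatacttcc
Cox8b, chr7:140900447-140900696, minus strand: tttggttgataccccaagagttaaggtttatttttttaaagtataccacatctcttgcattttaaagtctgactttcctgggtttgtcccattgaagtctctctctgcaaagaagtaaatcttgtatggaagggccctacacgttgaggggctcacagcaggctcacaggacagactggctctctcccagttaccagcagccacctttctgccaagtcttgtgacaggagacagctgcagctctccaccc
Cox7a1, chr7:30183921-30184170, plus strand: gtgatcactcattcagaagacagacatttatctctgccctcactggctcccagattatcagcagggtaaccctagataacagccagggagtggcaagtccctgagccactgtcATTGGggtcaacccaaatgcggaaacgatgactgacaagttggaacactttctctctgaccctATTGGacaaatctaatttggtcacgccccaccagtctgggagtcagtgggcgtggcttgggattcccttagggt

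In these windows Atp5g1 held 5 matches to the NF-Y letters, with first bases 229, 126, 95, 92 and 69 bases before the start. Those at 95 and 92 overlap. Cox6a1 held the NRF1 letters 160 bases before the start, which overlap their own reverse complement and so may be 1 site, and the ETS letters 16 bases before it. Cox8b held none of the 9 motifs in the bases shown. A match is a description of letters and not evidence of a bound factor, and no match says only that these letters are not in the window.

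Nearly all members had open chromatin at a gene end. Such a peak marked 88 of 96 members (91.7%, Wilson 95% interval 84.4 to 95.7), against 66.5% of all protein-coding genes (14552 of 21887). RefSeq's promoter table lists a transcription start for 78 members, and a peak lay within 1 kb of a listed start, here a start peak, in 75 of them (96.2%), against 66.5% of the 17492 protein-coding genes with a listed start. Counting either kind of peak, all 77 ubiquitous subunits had one. The 6 members with neither were Ndufb4b, Ndufb4c, Cox6a2, Cox7b2, Cox8b and Cox8c, of which the Ndufb4 genes are copies of a complex I subunit and the others are tissue isoforms of complex IV.

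Where a gene had several gene-end peaks, that of highest fold enrichment was used. The authors give this fold as summit pileup over the background around the peak. Among members with a peak the pileup had a median of 79.5, with quartiles of 63.5 and 101 and a range of 10 to 201. Over all protein-coding genes with a peak the median was 65 and the quartiles 37 and 100. With genes lacking a peak set to 0, the medians were 75.5 and 36. Pileup exceeded 65 in 64 of 96 members (66.7%), against 33.2% of all protein-coding genes, and exceeded the upper quartile of 100 in 23 members (24.0%), against 16.5%. Pileup was below the lower quartile of 37 in 11 of 96 members, against 3624 of 21887 protein-coding genes. The highest gene-end pileup over all genes was 938. Median fold was 12.6 in members and 11.1 in all genes, and median peak width 853 and 890 bp.

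**Figure D1:**
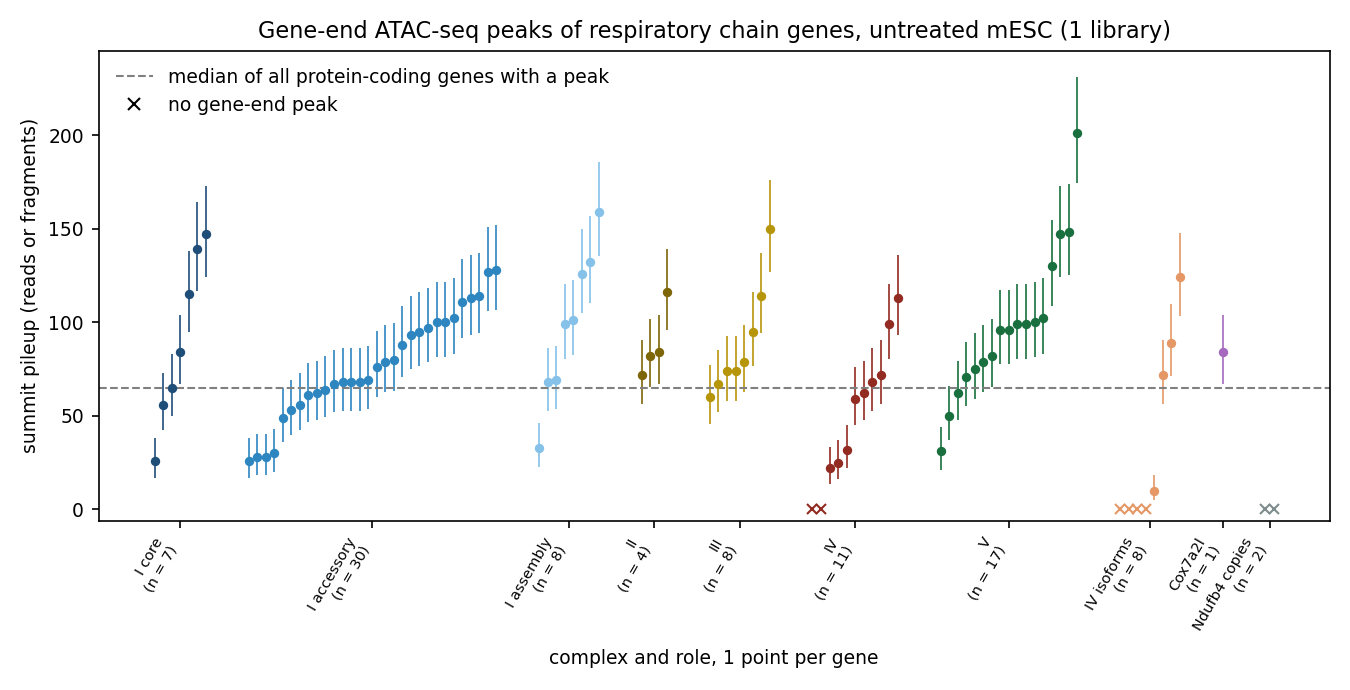
Summit pileup of the gene-end peak (vertical axis, reads or fragments) of each of 96 members, ordered within complex and role, with bars giving exact Poisson 95% intervals and crosses marking members without a peak. Every complex spans the all-gene median of 65 (dashed) except complex II, whose 4 genes lie between 72 and 116, and the crosses fall in complex IV, its isoforms and the Ndufb4 copies.

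Complex I, the entry point for electrons from NADH, showed peaks at all 7 nuclear core subunits, with a median pileup of 84. Ndufs8, which carries iron-sulfur clusters, had 147 (interval 124 to 173), Ndufv1, the subunit that binds FMN and NADH, 139 (117 to 164), and its neighbour Ndufv2 115 (94.9 to 138). Ndufs7, the subunit nearest the quinone site, had 84. Ndufs3 stood at 65 and Ndufs1, the largest subunit, at 56, both at or below the all-gene median. The intervals of Ndufs8, Ndufv1 and Ndufv2 overlap each other, and those of Ndufv1 and Ndufs8 lie above those of Ndufs7, Ndufs3 and Ndufs1. The peak of Ndufs1 is shared with Eef1b2, and that of Ndufs8 with Aldh3b1.

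All 30 accessory subunits of complex I, which surround the core and are needed for its stability, carried a gene-end peak, and their pileups ranged from 26 to 128 about a median of 72.5. Ndufa6 (128, interval 107 to 152) and Ndufb5 (127, 106 to 151) stood highest, followed by Ndufa11 (114) and Ndufv3 (113). The lowest were Ndufc2 (26, 17.0 to 38.1), Ndufa1 (28) and Ndufa9 (28), whose intervals lie wholly below 65. Ndufs4, which is often mutated in Leigh syndrome, had 30 (20.2 to 42.8). The remaining accessory subunits lay between 49 and 111.

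The 8 assembly factors named Ndufaf, which help to build complex I and are not part of it, also all had a peak. Their median was 100, and at listed starts alone it was 101, against 115 for the core subunits. Ndufaf8 had 159 (135 to 186), Ndufaf7, a mitochondrial methyltransferase, 132 (110 to 157), Ndufaf3 126 and Ndufaf5 101. Ndufaf1 was the lowest with 33 (22.7 to 46.3), and Ndufaf4 (68) and Ndufaf6 (69) lay between. Of these 8 peaks 5 were shared with another gene.

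Complex II, the only complex with no subunit from mitochondrial DNA, had the narrowest range of pileup but also the fewest genes, 4. Its iron-sulfur subunit Sdhb had a pileup of 116 (95.9 to 139), the membrane anchors Sdhc and Sdhd had 84 and 82, and the flavoprotein Sdha had 72 (56.3 to 90.7). Intervals of Sdha, Sdhc and Sdhd overlap, while that of Sdhb lies above that of Sdha. Sdha, Sdhc and Sdhd each shared their peak.

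In complex III all 8 genes had a peak. Uqcrq, which sits beside cytochrome b, had 150 (127 to 176) at a peak shared with Gdf9, the gene of an oocyte growth factor. The hinge protein Uqcrh had 114 (94.0 to 137), and the Rieske iron-sulfur protein Uqcrfs1 had 95 (76.9 to 116). Uqcrb had 79, the core proteins Uqcrc1 and Uqcrc2 had 74 each, and the small subunits Uqcr10 and Uqcr11 had 67 and 60. From Uqcrfs1 down to Uqcr11 neighbours in this order do not differ beyond counting error.

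Complex V had peaks at all 17 genes and a median of 96. The largest pileup of any member was that of Atp5g1, one of 3 genes for the c-subunit of the rotor ring, whose products differ in the targeting peptide and give the same mature protein. Atp5g1 had 201 (174 to 231), Atp5g2 had 96 (77.8 to 117) and Atp5g3 had 62 (47.5 to 79.5). The interval of Atp5g1 lies above both others, and those of Atp5g2 and Atp5g3 overlap. The peak of Atp5g1, chr11:96075397-96076256, covered the listed start and the whole sequence printed above, with its summit 250 bases before the start. Of the other subunits, the stalk subunit Atp5j had 148 (125 to 174), the catalytic beta subunit Atp5b 147 (124 to 173) and Atp5md 130. The alpha subunit Atp5a1, which forms the catalytic hexamer with Atp5b, had 71 (55.5 to 89.6), and the intervals of the 2 do not overlap. The gamma subunit Atp5c1 had 96 and the epsilon subunit Atp5e 100, which complete the catalytic head with Atp5d. The stalk and membrane subunits Atp5h, Atp5j2, Atp5pb, Atp5k, Atp5mpl and Atp5o lay between 75 and 102. Atp5l, a subunit of the membrane part, was the lowest with 31 (21.1 to 44.0). Atp5d had 50 at an annotated gene end, where its peak is shared with Cbarp, and 79 (62.5 to 98.5) at its own listed start.

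Complex IV had the lowest median among the complexes, 62 over the 9 of 11 ubiquitous subunits with a gene-end peak. At listed starts its median was 72, close to 72.5 for the accessory subunits of complex I and 74 for complex III. Cox8a had 113 (93.1 to 136) and Cox7c 99 (80.5 to 121), followed by Cox6a1 (72) and Ndufa4 (68), a subunit first counted with complex I. Cox5b had 62 and Cox4i1 59. Cox6b1 (32, 21.9 to 45.2), Cox7b (25, 16.2 to 36.9) and Cox6c (22, 13.8 to 33.3) had the lowest pileups of the subunits in this complex, and their intervals lie below 65. Cox5a and Cox7a2 had no peak at an annotated end. Each had one at its listed start, which lies inside the annotated span, with 75 (59.0 to 94.0) at Cox5a and 95 (76.9 to 116) at Cox7a2. Cox7a2l, which joins complexes III and IV into supercomplexes, had 84 (67.0 to 104).

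Ranges of the complexes overlap throughout, so the order of their medians describes these genes only. The 3 members on the X chromosome, Ndufa1, Ndufb11 and Cox7b, had pileups of 28, 64 and 25. All protein-coding genes with a peak had a median of 41 on the X chromosome and 66 on the autosomes. The copy number of the X chromosome was not measured, and its part in these 3 values was not tested.

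The tissue isoforms were the least uniform members. Of 8, 4 had a gene-end peak, against 6 of the 7 ubiquitous partners and 66.5% of all protein-coding genes. With windows of 2500 bp the counts were 6 of 8 and 6 of 7, against 72.4% of all genes, so the contrast in counts rests on the window. With windows of 1 kb and with no peak set to 0 the median pileup was 5 against 59. The muscle forms Cox6a2 and Cox8b and the testis forms Cox7b2 and Cox8c had none. Their partners were open at the start: Cox6a1 had 72, Cox8a 113 and Cox7b 25. Cox8b and Cox8c share Cox8a as partner. The Cox8a peak, chr19:7217327-7218281, covers the whole sequence printed above, and no peak lay within 1 kb of either end of Cox8b, chr7:140898942-140900446. Cox7b2 held peaks in its 105383 bp gene body, the highest with a pileup of 39. Just outside the windows, extending them to 2500 bp reached peaks with pileups of 58 at Cox8b and 12 at Cox7b2. Just inside, the Atp5g3 peak with 62 was lost with windows of 500 bp about the annotated ends. That peak covers the listed start of Atp5g3, with its summit 21 bases before the start.

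Of the isoforms with a peak, Cox4i2, known from lung and from cells short of oxygen, had 10 (4.80 to 18.4), against 59 (44.9 to 76.1) for Cox4i1. This was the weakest gene-end peak of any member, with the authors' -log10 q at 4.82. Cox7a1, the heart and skeletal muscle form, had 72 (56.3 to 90.7) with its summit 45 bases before its start and no other gene at the peak, chr7:30183868-30184421. Its partner Cox7a2 had 95 (76.9 to 116), and the intervals overlap. Cox7a1 thus differed from the other muscle isoforms, Cox6a2 and Cox8b, in being called open here.

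Cox6b2, the testis form, had 124 (103 to 148), 3.88 times the 32 (21.9 to 45.2) of Cox6b1, with intervals that do not overlap. Its peak is 1664 bp wide, covers the whole 1303 bp gene, lies within 1 kb of an end of Fam71e2 and has its summit 750 bases after the Cox6b2 start. Ndufa4l2, known from cells short of oxygen, had 89 (71.5 to 110) at a peak shared with Stac3, and Ndufa4 had 68 (52.8 to 86.2), with overlapping intervals. For these 2 isoforms the peak cannot be given to 1 gene. The median local background under the 4 isoform peaks was 8.80, against 5.52 under all member peaks, and their median fold was 7.88, against 12.6.

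**Figure D2:**
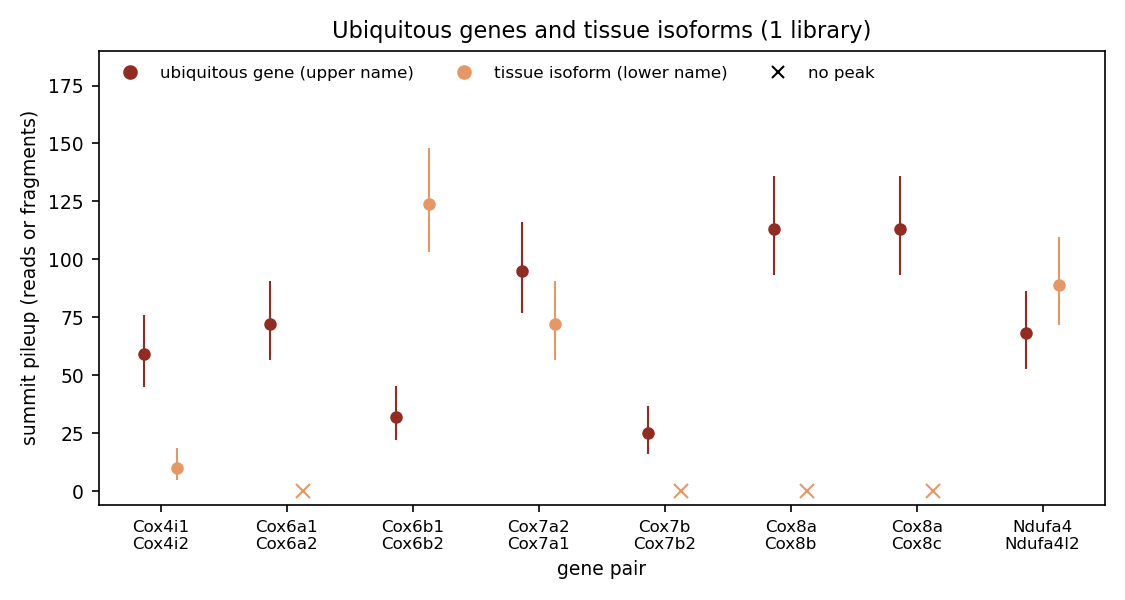
Summit pileup (vertical axis, reads or fragments) of 8 tissue isoforms and their ubiquitous partners, taken at the listed start or, where none is listed, at the gene end, with exact Poisson 95% intervals and crosses for no peak. Every partner has a peak, 4 isoforms have none, and Cox6b2 is the isoform whose interval lies above that of its partner.

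Ndufb4b and Ndufb4c, copies of the complex I subunit Ndufb4 with annotated spans of 471 and 485 bp, lacked a gene-end peak. Ndufb4 itself spans 6767 bp and had 67 (51.9 to 85.1). Reads that match several copies may be lost or misplaced, and their treatment by the authors is not stated in the sources used here.

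Peaks of members sat on the start. Of 75 start peaks, 74 covered the listed start (98.7%), against 90.7% over all genes with a start peak, and the summit lay within 100 bp of it in 55 (73.3%), against 54.6%. The median distance was 64 bp in members and 88 bp in all genes. The summit was upstream in 51 members (68.0%, against 59.7%). The exception was Ndufa13, whose start peak had its summit at -1263 bp and a pileup of 92. Among 57 members longer than 4 kb with a known strand, 48 had a peak at the 5′ end only (84.2%, against 57.2% of all such genes). Both ends were marked in 6 (10.5%, against 13.3%), and the 3′ end alone in none (all genes, 3.26%). Cox5a, Cox7a2 and Cox7b2 had neither end marked (5.26%, against 26.3%). The gap in 5′ shares thus includes the difference in genes with no peak at either end. Within the gene body, beyond 1 kb from the ends, 26 members (27.1%) held a peak, against 46.3% of all genes. Gene length was not matched between these sets, and short genes such as Atp5k (1154 bp) have no body beyond these windows. At Cox5a, Cox7a2 and Atp5d the highest body peak is the start peak.

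**Figure D3:**
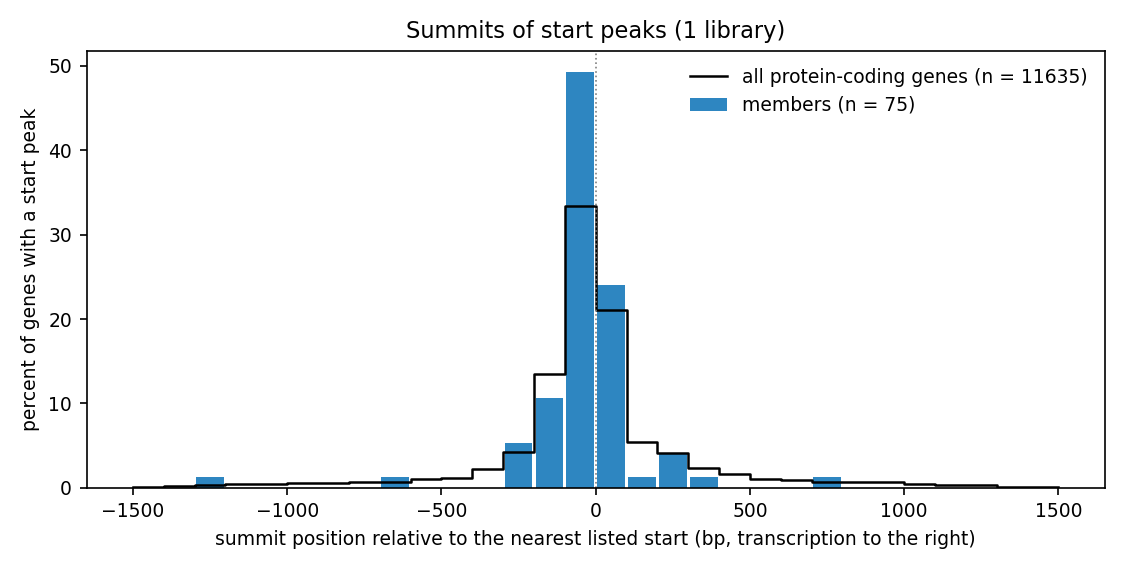
Distance from the nearest listed start to the summit of the start peak (horizontal axis, bp, in bins of 100 bp) as a percent of genes with a start peak, for 75 members (bars) and 11635 protein-coding genes (line, 42 of them beyond the axis). Members gather in the 2 bins beside the start, and the bar far to the left is Ndufa13.

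Many members shared their peak with a second gene. A gene-end peak also lay within 1 kb of another protein-coding gene's end in 42 of 88 members (47.7%), against 24.6% of all genes with a gene-end peak. By the annotation alone, 22 of 78 listed member starts (28.2%) stood head to head with another gene's start within 1 kb, against 8.48% of all genes. All 22 had a start peak, against 98.3% of all head-to-head genes. Of the 56 other members 53 had one (94.6%), against 63.6% of the other genes. Median start pileup was 97.5 in the head-to-head members and 79 in the others, and 97 and 65 in the same classes of all genes. Higher pileup beside a second start was thus not particular to the members.

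Among the shared peaks with the most pileup, Ndufaf8 faced Tepsin, an adaptor of vesicle coats, at a distance of 203 bp between starts. Atp5j faced Gabpa, which encodes the GABPA factor named above, at 148 bp: their common peak, chr16:84834343-84836355, is 2013 bp wide with its summit 12 bases before the Atp5j start. Atp5md faced Pdcd11 at 119 bp. Uqcrq shared its peak with Gdf9 and Ndufaf7 with Cebpz, where 1 of the starts is not listed, and Ndufs8 with Aldh3b1 on the same strand. Further down, Ndufb5 faced Mrpl47 at 308 bp and Sdhd faced Timm8b at 52 bp. The closest starts were those of Ndufa7 and Rps28, a cytosolic ribosomal protein, 10 bp apart. At such distances 1 peak covers both starts, and the pileup cannot be divided between the genes.

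Promoter sequence was compared over 300 bases, 250 before and 50 after the first listed start. Members held a median of 20 CpG dinucleotides, all promoters 13 and all promoters with a start peak 21. The ratio of observed to expected CpG was 0.831, 0.577 and 0.754 in these sets, and median GC content 58.5%, 56.3% and 61.3%. Of 71 members with 11 or more CpG, all had a start peak, with a median pileup of 88. Over all promoters 97.7% with as many CpG had one, with a median of 75, so a start peak in this class is not particular to the members. This division was chosen after the values were seen. Of the 7 members with 10 or fewer, 4 had a start peak (28.1% over all promoters), namely Cox6b2 (124), Cox7a1 (72), Ndufc2 (26) and Cox7b (25), and Cox7b2, Cox8b and Ndufb4b had none. Cox8b, with 2 CpG, was the poorest, and Cox8a had 19. Cox7a1 had 7 CpG, and only Cox7b, Ndufb4b and Cox8b had fewer. Atp5j, with 43, was the richest.

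**Figure D4:**
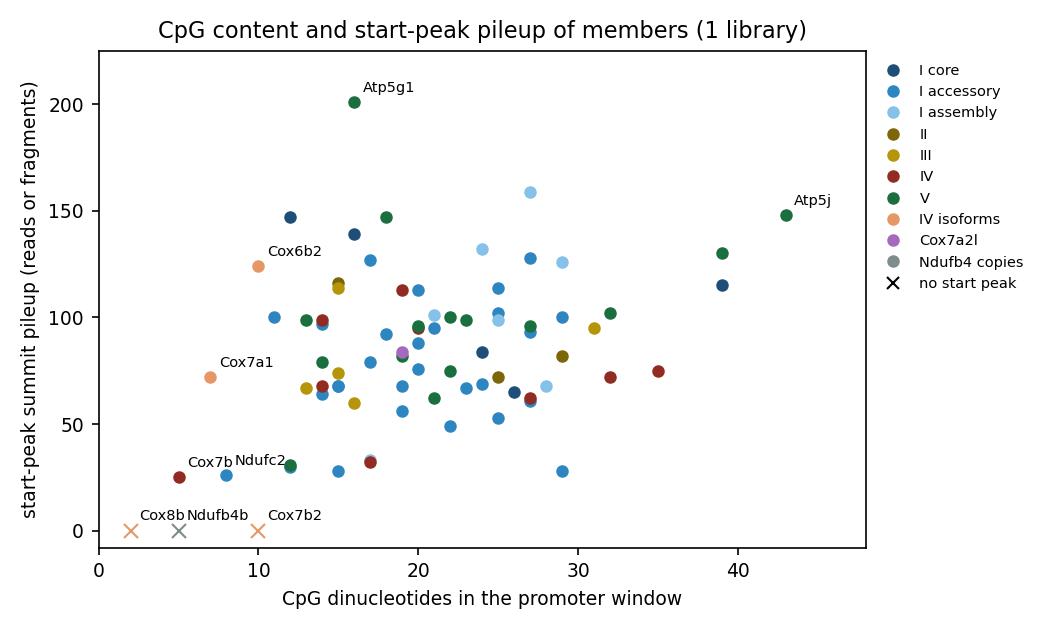
CpG dinucleotides in the 300-base promoter window (horizontal axis) and summit pileup of the start peak (vertical axis, reads or fragments) for 78 members, coloured by complex and role, with crosses at 0 for members without a start peak. The 3 crosses lie at 10 CpG or fewer, Atp5g1 reaches 201 with 16 CpG, and above 10 CpG pileup spreads from 28 to 201.

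Over the 300 bases, letters of NRF1, ETS and YY1 were more frequent in member promoters than in all promoters. NRF1 letters (GCATGCGC) stood in 12 of 78 (15.4%), against 3.61% of all promoters and 5.19% of those with a start peak. ETS letters (CCGGAAG) stood in 18 (23.1%, against 11.9% and 17.0%), and YY1 letters (AAGATGGCG) in 7 (8.97%, against 1.94% and 2.85%). At least 1 of the 3 was present in 31 members (39.7%, against 16.3% and 23.3%). All 7 YY1 matches lay after the start, at a median of 24 bases, and none before it. In the 200 bases before the start alone, the members' shares were 10.3% for NRF1 (against 2.81% of all promoters and 4.02% of those with a start peak), 14.1% for ETS (against 8.43% of all promoters and 1395 of the 11635 with a start peak) and 0% for YY1 (against 0.600% and 0.868%). The ETS share there was thus near that of open promoters, and the higher YY1 share was absent. These motifs contain CpG or stand in CpG-rich DNA, and base composition was not matched between the sets.

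NRF1 letters were found in Ndufa6, Ndufa8, Ndufa11, Ndufaf4, Ndufaf5, Sdhb, Uqcrc1, Uqcr11, Cox6a1, Atp5g2, Atp5k and Atp5l, so every complex had at least 1 carrier. NRF1 and ETS letters occurred together in 5 of 78 members, Sdhb, Uqcr11, Cox6a1, Atp5k and Atp5l. They did so in 120 of 17492 promoters and in 114 of the 11635 with a start peak. ERR letters (TCAAGGTCA) stood in Sdhd and Atp5g3 alone (2.56%, against 0.332% of all promoters and 0.266% of those with a start peak). CRE letters (TGACGTCA) stood in Ndufa10, Ndufa11, Ndufb2 and Uqcrfs1 (5.13%, against 2.34% and 3.23%). The letters GGGCGG of SP and KLF factors were in 44.9% of members, near the 46.3% of all promoters and below the 65.2% of those with a start peak. CCAAT of NF-Y was in 43.6% (39.0% and 38.9%) and TATAAA in 10.3% (13.3% and 6.80%). CTAAAAATA of MEF2, a muscle factor, was in no member and in 0.395% of all promoters.

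**Figure D5:**
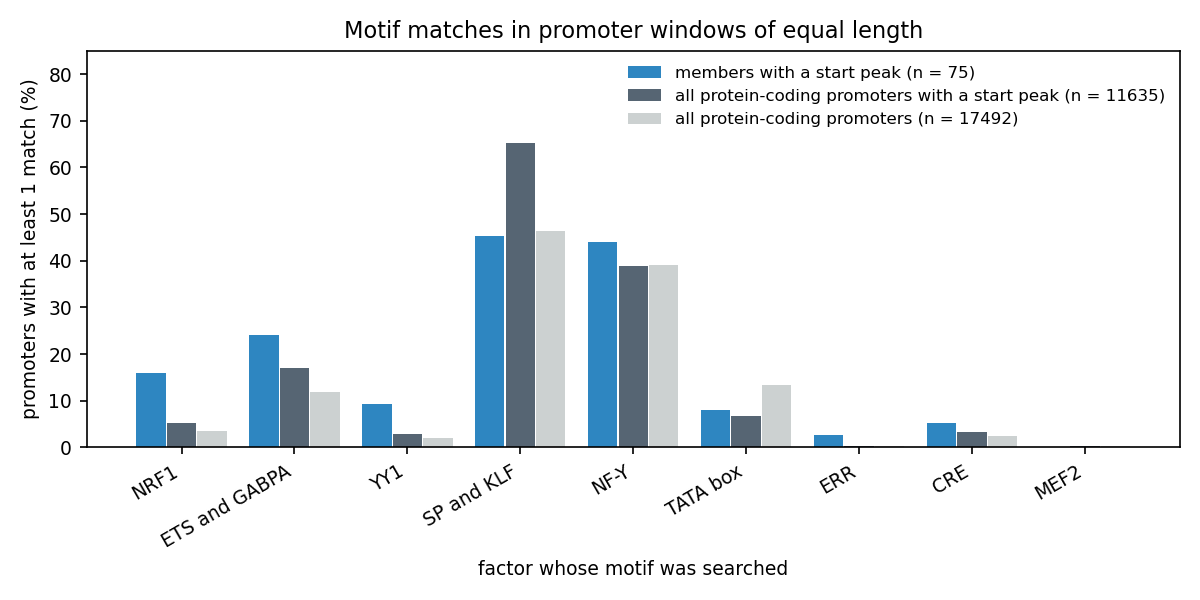
Percent of 300-base promoter windows with at least 1 match on either strand (vertical axis) for 9 motifs, named by factor, in 75 members with a start peak, 11635 promoters with a start peak and all 17492 promoters. The bars of NRF1, ETS and YY1 are taller in members, and that of SP and KLF is shorter than in promoters with a start peak.

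In members, pileup was no higher with these letters than without. Among members with a start peak the median pileup was 78 with NRF1 letters and 88 without, 82 and 88 for ETS, and 84 and 88 for YY1. In all genes with a start peak it was 75 and 69, 81 and 66, and 83 and 69. For SP and KLF letters the members' medians were 95.5 with and 75 without, against 75 and 58 in all genes with a start peak. For NF-Y they were 97 and 82, against 81 and 63, so this rise was general.

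Genes outside the symbol rule that serve the same pathway were open at a like share. Of 65 listed in 6 groups, 62 were marked by a gene-end peak (95.4%, against 91.7% of members and 66.5% of all protein-coding genes). Their median pileup was 83, against 79.5 in members and 65 in all protein-coding genes with a peak. The electron carrier Cycs, cytochrome c, had 102 and Cyc1 of complex III 53, while Cyct, the testis cytochrome c, had 10 (4.80 to 18.4), as Cox4i2 did. Among further assembly factors the highest were Bcs1l (171), which inserts the Rieske protein, and Cox18 (161) for complexes II to V, and Ecsit (161) and Foxred1 (156) for complex I. The Ecsit peak is shared with Zfp653, and the peak at its own listed start had 64. The Foxred1 peak is shared with Srpr and the Bcs1l peak with Zfp142. By the gene-end peak the highest regulators were Gabpa (148) and Yy1 (135). The Gabpa peak is the one it shares with the member Atp5j, so it is counted in both sets. Esrra had 92 at a gene end, at a peak shared with Prdx5 and Trmt112, and 156 at its listed start. Among genes of mitochondrial DNA the highest were Tfb1m (156) and Polg2 (145), and the Polg2 peak is shared with Ddx5. Atpaf2, Gabpb1 and Polg had no gene-end peak, and each had a peak at its listed start, with pileups of 107, 73 and 163.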

How the data were processed

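ATAC-seq peaks of 1 library, untreated E14 NSD1-dTAG stem cells, were analysed. Per the submitters' processing notes, the tools included MACS2 2.2.6 and Bowtie2 2.3.4.1, with SAMtools 1.9 and bcl2fastq 2.20.0.422, and deepTools 3.2.1 is also named. The notes give mm10 and GRCm38.p6 as builds. The sources used here do not state the total read count, a Tn5 shift, or filters on duplicates, mapping quality or mitochondrial reads. The deposited list gives the authors' integer score (-log10 q times 10, rounded down), a summit offset, the authors' -log10 q and -log10 p, and the fold, the authors' ratio of pileup to background. That background came from the same library, since no control is named in the file's label.

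Pileup was solved from fold and Poisson p, which gave whole numbers (tolerance 0.01) in 77626 of 77629 peaks. Reads kept from PCR copies are not independent molecules. Genes and promoters came from RefSeq tables of GRCm38.p6. Positions are printed from 1. Sets were described by counts, shares and medians beside all genes, with no test. Alternatives varied the q threshold, window, overlap rule, minimum pileup, widest peaks, listed starts, the choice of peak per gene and the members counted. The functions were tested on simulated data. The members, roles and lists were chosen with earlier results of these data known. Named genes were all isoforms and partners, all members without a peak, complexes II and III, the 3 c-subunit genes, the 4 highest and 3 lowest of each other role, the 6 highest shared peaks, and in each pathway list the 2 highest and those without a peak. Of the genes so chosen, 1 is not reported here. Other genes were named after their values were seen. Calculations ran in Python 3.11.15 with pandas 2.3.3, numpy 2.4.6, matplotlib 3.10.9 and scipy 1.17.1.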

Additional observations from a re-analysis of the deposited data

How the results depend on the processing

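Of 144 recomputed values for the sets of genes, 137 stayed near the reported value and 7 moved. For counts, near meant within 1.5 times. For median pileups it meant inside an exact Poisson 95% interval that treats the reported median as a count. That interval is not a spread over genes. For motif shares it meant inside the Wilson 95% interval of the reported share. Members with a gene-end peak numbered between 86 and 90 of 96 under the other peak settings, and 75 of 78 with listed starts only. Their median pileup stayed between 73 and 84. With listed starts only, the tissue isoforms with a peak were 2 of 4, the complex I core median was 115 over 5 genes, members sharing their peak were 25 of 75, and members with body or flanking peaks only were 2 of 3 (reported here as 4 of 8). With windows of 2500 bp that last count was 2 of 6. In the 200 bases before the start alone, ETS letters were in 14.1% of members (1395 of the 11635 promoters with a start peak) and YY1 letters in 0% (0.868%). Of single members, Cox4i2 lost its peak at a -log10 q of at least 5 and at a pileup of at least 20, Atp5g3 with windows of 500 bp and with the summit required inside the window, and Atp5j and Uqcr10 without the 0.1% highest folds and the 1% widest peaks. Cox7b2 and Cox8b gained one with windows of 2500 bp. Atp5g3 kept its peak, with a pileup of 62, at its listed start. No paired analysis was possible because there is 1 library. Depth limits the weakest calls: peaks of low pileup can be missed, and a gene without a peak was not detectably open at this depth.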

Other observations

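The genome also holds 19 annotated pseudogenes whose symbols match the rule, and 4 of them had a peak within 1 kb of an end: Ndufa12-ps with a pileup of 39, Ndufs6b with 21, Ndufa11b with 13 and Cox5b-ps with 9. None of these 4 peaks lay at an end of a protein-coding gene. Their median pileup was 17. The lowest ubiquitous subunit with a gene-end peak was Cox6c with 22, below the 39 of Ndufa12-ps, so the ranges overlap. The share over all annotated pseudogenes was not measured, so the count of 4 describes these 19 only. The sources used here do not state how reads that match both a gene and its pseudogene were placed.

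Counting the gene body and 10 kb on either side, beyond the gene-end windows, 80 of 96 members (83.3%) had a further peak, against 73.0% of all protein-coding genes. Of the 8 members without a gene-end peak 4 had such a peak: Cox5a, Cox7a2, Cox7b2 and Cox8b. Cox6a2, Cox8c, Ndufb4b and Ndufb4c had no peak in this wider range either.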
